A study of Solanum lycopersicum with 9 samples.

Results

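TCP transcription factors of tomato were followed through ripening in the pericarp, the fleshy wall of the fruit. The annotation of the array names 21 TCP genes, covered by 24 probe sets. Each gene was read from the probe set with the highest mean over the 9 arrays, and the 10 genes with the highest means, of the 67795 probe sets in all, are described here: TCP11, TCP18, TCP12, TCP15, TCP24, TCP21, TCP16, TCP20, TCP13 and TCP14. The fruits were wild type, of the cultivar Ailsa Craig, from plants grown hydroponically in a greenhouse, and had no treatment. They were taken at breaker, when the first colour shows (2 arrays), at turning (2 arrays), at pink (2 arrays) and at red ripe (3 arrays). Stages were set by the skin colour and development of the fruit, and neither ages in days nor pooling of fruits are given in the sources used here. The values are log2 signals on Affymetrix TomGene ST 1.1 strips, so that 1 unit is a 2-fold difference.

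TCP proteins are plant transcription factors that share a DNA-binding domain of the basic helix-loop-helix kind, the TCP domain, named after TEOSINTE BRANCHED of maize, CYCLOIDEA of snapdragon and the PCF proteins of rice. They are known for setting where and for how long plant cells divide and grow: in tomato leaves the TCP gene LANCEOLATE, which microRNA miR319 restrains, limits growth at the leaf margin, and the BRANCHED1 genes hold side buds back. TCP24 belongs with TCP3 and TCP10 to the relatives of LANCEOLATE that carry a miR319 site, and TCP12, TCP15 and TCP18 have been described in tomato as expressed mainly in fruit. The numbers follow the naming of the tomato family and do not mark the equivalent gene of Arabidopsis.

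RefSeq (assembly SLM_r2.1) holds 20 of the 21 genes under 1 record each, among them TCP11 and TCP15 on chromosome 1, TCP12 on chromosome 11 and TCP24 on chromosome 8. The name TCP18 stands there as a synonym in 3 records, which include BRC1a and BRC1b, the tomato BRANCHED1 genes. Which of these genes the probe set named TCP18 reads could not be settled from its name, and TCP18 below means that probe set. The 5 genes with the highest means were read by probe sets 20434960 (TCP11), 20260431 (TCP18), 20416300 (TCP12), 20245570 (TCP15) and 20364506 (TCP24).

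The TCP genes fell into a set with clear signal and a set without it. TCP11, TCP18, TCP12, TCP15 and TCP24 had mean log2 signals of 6.68, 6.66, 6.25, 5.38 and 4.25 over the 9 arrays. The next gene, TCP21, had 2.33. TCP21, TCP16, TCP20, TCP13 and TCP14 lay between 1.67 and 2.73 on every array, where the median of all probe sets was 1.78 to 2.01, and this range cannot be told from background. At the edge of the choice TCP14 had a mean of 2.04 and TCP19, left out, 1.92. The 11 genes left out (TCP19, TCP3, TCP6, TCP5, TCP7, TCP4, TCP23, TCP17, TCP10, TCP22 and TCP1) had means of 1.17 to 1.92 and did not exceed 2.40 on any array. Signals of different probe sets depend on their probes, so these means give no order of transcript amounts between genes.

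**Figure D1:**
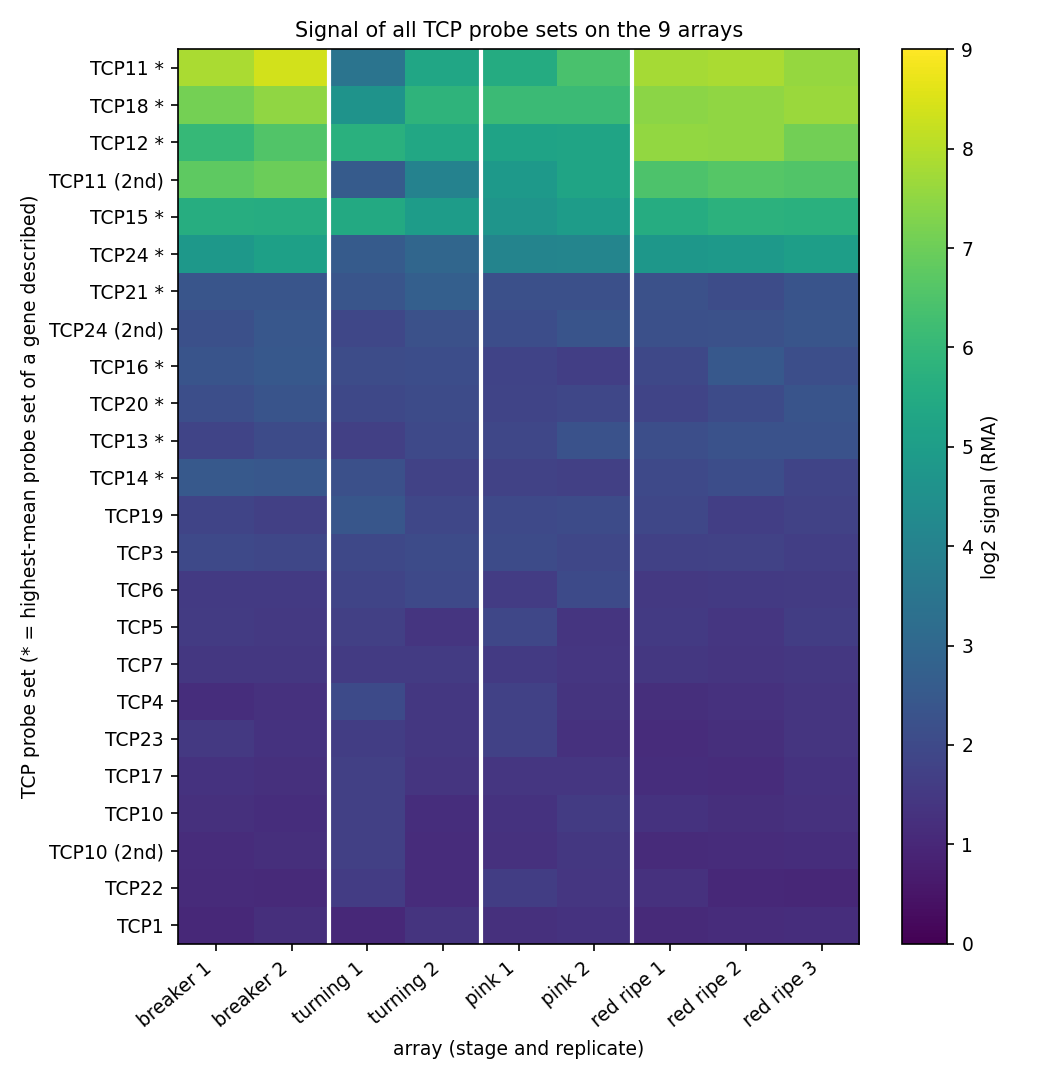
Log2 signal (colour, 0 to 9) of the 24 TCP probe sets (rows, ordered by mean) on the 9 arrays (columns, by stage and replicate), with white lines between stages and a star at the 10 genes described. Clear signal is seen in TCP11, TCP18, TCP12, TCP15 and TCP24, while the other genes stay at or under 2.73 on every array.

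The arrays of the 4 stages differed in their upper range, and this bears on every TCP gene with clear signal. The level exceeded by 1 in 10 probe sets was 5.09 or more on the breaker arrays and 5.24 or more on the red ripe arrays. It was 4.51 or less on the turning arrays and 4.55 or less on the pink arrays. The replicates of breaker, turning and pink correlated at r = 0.988, 0.939 and 0.957, and those of red ripe at 0.983 to 0.991. Of 9 matched marker genes of ripening pericarp, from a list of 15, those with a stage mean over 4 numbered 8, 5, 7 and 8 at breaker, turning, pink and red ripe. Pericarp is the tissue in the labels, whereas the methods name fruit and, in 1 sentence, abscission zones. Of 4 matched abscission zone markers CEL1 alone exceeded 4, with 6.08, 3.04, 5.92 and 5.64 in the same order, while TAPG2, TAPG4 and CEL5 stayed at or under 2.42. Of 4 matched markers of the epidermis 4, 2, 4 and 2 exceeded 4, and of 5 markers of green tissue 3, 2, 2 and 2. No seed gene could be matched. The part of these differences in the results below was not tested beyond the other scalings given with them.

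TCP11 had the largest difference between turning and breaker among the 10 genes. Its log2 signals were 7.85 and 8.37 at breaker, 3.45 and 5.31 at turning, 5.53 and 6.40 at pink and 7.79, 7.85 and 7.59 at red ripe. Both turning arrays lay below both pink arrays, and the pink arrays below all arrays of breaker and red ripe. The stage means were 8.11 ± 0.37 (SD, n = 2) at breaker, 4.38 ± 1.32 (n = 2) at turning, 5.96 ± 0.62 (n = 2) at pink and 7.74 ± 0.14 (n = 3) at red ripe. TCP11 fell by 3.73 on the log2 scale at turning against breaker (standard error 0.53, limma adjusted p = 0.00217), a level 13.3-fold lower, and rose by 3.36 at red ripe against turning (standard error 0.48, adjusted p = 0.00134). Red ripe and breaker differed by -0.37 (standard error 0.48, adjusted p = 1.00), less than its standard error. In bulk tissue, fewer cells that express a gene and less of its RNA per cell cannot be told apart, which holds for each change given here. A second probe set of the gene, 20254913, gave 6.76 and 6.98 at breaker, 2.57 and 4.0 at turning, 4.83 and 5.25 at pink and 6.49, 6.62 and 6.55 at red ripe. It fell by 3.58 at turning (adjusted p = 5.24e-04), a size limited by background, since 2.57 on turning replicate 1 lies in the range that cannot be told from it. The second probe set correlated with the other at r = 0.993 over the 9 arrays, which share their labelling and scaling.

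TCP18 was also lowest at turning, with the pink arrays next. Its log2 signals were 7.11 and 7.49 at breaker, 4.62 and 5.85 at turning, 6.15 and 6.15 at pink and 7.43, 7.49 and 7.64 at red ripe. All turning and pink arrays lay below all breaker and red ripe arrays, and the red ripe arrays overlapped with those of breaker. TCP18 fell by 2.06 at turning against breaker (standard error 0.34, adjusted p = 0.00444), to a mean of 5.24 ± 0.87 (SD, n = 2) at turning against 7.30 ± 0.27 (n = 2) at breaker. At pink the difference from breaker was -1.15 (standard error 0.34, adjusted p = 0.0699), short of the threshold of 0.05. This difference passed in 8 of 22 alternatives, among them median centring (adjusted p = 0.0430), array weights (0.0272) and only the 2 stages in the fit (0.0297). With array weights and with only the 2 stages it stayed at -1.15, so these settings changed only the spread used in the test. The turning arrays enter this comparison only through that spread, with an SD of 0.87 at turning and 0 at pink. After quantile and cyclic loess normalization the adjusted p was 0.1175 and 0.1554. At red ripe TCP18 rose by 2.28 against turning (standard error 0.31, adjusted p = 9.61e-04) and by 1.37 against pink (standard error 0.31, adjusted p = 0.0169).

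TCP24, of the miR319 type, also had its trough at turning and was higher again at pink. Its log2 signals were 4.81 and 5.11 at breaker, 2.57 and 2.98 at turning, 4.06 and 4.09 at pink and 4.78, 4.82 and 5.03 at red ripe. The turning arrays lay below the pink arrays, which lay below all others. TCP24 fell by 2.19 at turning against breaker (standard error 0.19, adjusted p = 1.75e-04), the smallest adjusted p of the 10 genes in that comparison, and by 0.88 at pink against breaker (standard error 0.19, adjusted p = 0.0177). At pink against turning TCP24 rose by 1.30 (standard error 0.19, adjusted p = 0.0119) and was the only one of the 10 past the test between these stages. The turning level of 2.78 ± 0.29 (SD, n = 2) lay near background, which limits how well the size of this fall was measured. The second probe set of the gene, 20364509, stayed between 1.92 and 2.46 on all arrays and changed in none of the comparisons. With the mean of both probe sets the difference at turning measured -1.23, still with an adjusted p under 0.05, while 3 other changes of TCP24 lost theirs: pink against breaker (adjusted p = 0.135), pink against turning (0.0785) and red ripe against pink (0.135).

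TCP12, one of the genes described as expressed in fruit, differed from breaker at red ripe. Its log2 signals were 6.03 and 6.54 at breaker, 5.71 and 5.39 at turning, 5.23 and 5.26 at pink and 7.53, 7.52 and 7.08 at red ripe. The red ripe arrays lay above all other arrays, and the pink arrays below all others. TCP12 rose by 1.09 at red ripe against breaker (standard error 0.21, adjusted p = 0.0217), with 7.38 ± 0.26 (SD, n = 3) at red ripe against 6.28 ± 0.36 (n = 2) at breaker, and was the only one of the 10 genes past the test there. Against pink the rise of TCP12 at red ripe was 2.13 (standard error 0.21, adjusted p = 2.03e-04), 4.38-fold, and against turning it was 1.83 (standard error 0.21, adjusted p = 3.74e-04). Its difference from breaker at turning was -0.73 (adjusted p = 0.0714), while at pink the fall of 1.04 passed (standard error 0.23, adjusted p = 0.0212). The direct test of whether TCP12 and the other genes changed by different amounts was not made.

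TCP15 varied least among the genes with clear signal. Its log2 signals were 5.60 and 5.57 at breaker, 5.46 and 4.98 at turning, 4.71 and 4.97 at pink and 5.58, 5.80 and 5.71 at red ripe. Its stage means lay within 0.86 of each other, and the red ripe arrays overlapped with those of breaker. TCP15 fell by 0.74 at pink against breaker (standard error 0.19, adjusted p = 0.0394) and rose by 0.86 at red ripe against pink (standard error 0.17, adjusted p = 0.00981). Both changes were under 2-fold and depended on the scaling: they were -0.13 and 0.01 after quantile normalization and -0.32 and 0.17 after cyclic loess normalization, with adjusted p of 0.533 to 0.989. At turning its difference from breaker was -0.36 as deposited (adjusted p = 0.258) and 0.35 after quantile normalization (adjusted p = 0.428).

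**Figure D2:**
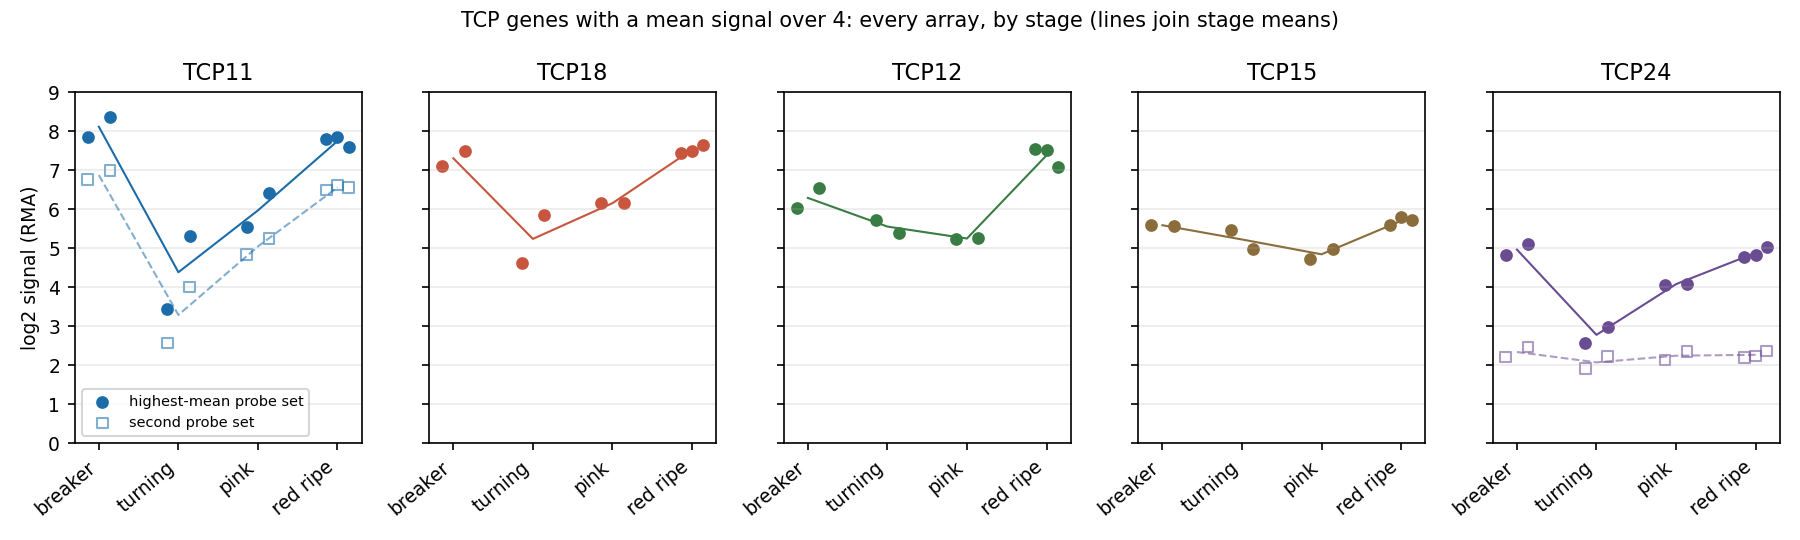
Log2 signal (vertical axis) of the 5 TCP genes with a mean over 4 at the 4 stages (horizontal axis). Each filled circle is 1 array read by the highest-mean probe set, each open square 1 array read by the second probe set of TCP11 or TCP24, and lines join stage means. TCP11, TCP18 and TCP24 are lowest at turning, and the red ripe arrays of TCP12 lie at 7.08 to 7.53, above all its other arrays.

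Over the 9 arrays TCP11 correlated with TCP18 at r = 0.972 and with TCP24 at r = 0.957, TCP18 with TCP24 at r = 0.957, and TCP12 with TCP15 at r = 0.844, whereas TCP11, TCP18 and TCP24 correlated with TCP12 and TCP15 at 0.513 to 0.749. The points share stages, labelling and scaling, and no test was made on these values.

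At turning, 3 of the 10 genes fell against breaker (TCP11, TCP18 and TCP24), none rose and 7 did not pass the test. Over all probe sets 9.01% fell and 3.87% rose at an adjusted p under 0.05, but among the 9456 probe sets with a mean signal over 4 the share that fell was 39.5%. The 3 falls, among 5 genes of that brightness, are to be read against the second share. The level of 4 was chosen after the values were seen. The median log2 fold change was -2.06 for the 5 genes with clear signal, -0.58 for all probe sets over 4 and 0.12 for all probe sets. With the median of each array set to 0, TCP12 and TCP14 passed as well (-0.90 and -0.67, adjusted p = 0.0355 and 0.0430), which made 5 falls. Over all 67795 probe sets this scaling moved the number of falls from 6105 to 7795. The falls of TCP11, TCP18 and TCP24 at turning stayed past the test under each of the 3 other scalings. Leaving out 1 of the 2 turning arrays takes the spread of that stage out of the test. A call made without it therefore cannot show that these falls exceed that spread. Without turning replicate 1 the 3 falls measured -2.80, -1.45 and -1.98. With only the arrays of these 2 stages in the fit TCP18 had an adjusted p of 0.0663.

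At pink, 5 of the 10 genes fell against breaker (TCP11, TCP12, TCP15, TCP24 and TCP14) and none rose, beside 7.39% of all probe sets lower and 2.77% higher, and 31.7% lower among those over 4. With a fold change over 2 required as well, 2 of the 10 fell (TCP11 and TCP12), beside 5.54% of all probe sets. TCP11 was 2.14 below breaker (standard error 0.53, adjusted p = 0.0352), with 5.53 and 6.40 at pink against 7.85 and 8.37 at breaker. TCP14, with 1.79 and 1.70 at pink against 2.50 and 2.46 at breaker, fell by 0.74 (standard error 0.17, adjusted p = 0.0305) within the range of background. None of the 5 falls held without each array in turn, and the number of falls ranged from 0 to 6. It was 0 without breaker replicate 2 or pink replicate 1, 1 without pink replicate 2, 2 without breaker replicate 1 or red ripe replicate 1, and 3 without red ripe replicate 2 or 3. After quantile or cyclic loess normalization 2 genes were lower, TCP14 and TCP16. Over all probe sets, falls numbered 5009 as deposited, 3529 after quantile and 3799 after cyclic loess normalization.

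At red ripe, 1 of the 10 genes rose against breaker (TCP12) and none fell, beside 2.35% of all probe sets higher and 1.69% lower, and 9.56% higher among those over 4. TCP11, TCP18, TCP15 and TCP24 had log2 fold changes of -0.37 to 0.22 with standard errors of 0.17 to 0.48, and each had an adjusted p of 1.00. The rise of TCP12 measured 1.00 after quantile and 0.85 after cyclic loess normalization (adjusted p = 0.0586 and 0.0692), and 0.84 without breaker replicate 1 (adjusted p = 0.209). It was also lost without red ripe replicate 1 or 2.

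Between the later stages the changes were rises. TCP24 alone changed from turning to pink, beside 1.47% of all probe sets higher and 0.875% lower, and 8.01% higher among those over 4. TCP11 and TCP18 had differences of 1.58 and 0.92 there (adjusted p = 0.202 and 0.252). TCP24 measured 1.285 without pink replicate 2 and lost its call. The differences of TCP11, TCP18 and TCP24 were 0.655, 0.30 and 1.095 without turning replicate 1. They were 2.515, 1.53 and 1.505 without turning replicate 2. From turning to red ripe 4 of the 10 rose (TCP11, TCP18, TCP12 and TCP24), beside 12.6% of all probe sets higher and 6.72% lower, and 53.5% higher among those over 4. From pink to red ripe all 5 genes with clear signal rose, by 0.80 (TCP24) to 2.13 (TCP12), beside 10.8% of all probe sets higher and 4.09% lower, and 45.6% higher among those over 4. With a fold change over 2 required as well, 3 rose (TCP11, TCP18 and TCP12), beside 7.79% of all probe sets. No TCP gene fell in these 3 comparisons, which share the turning, pink and red ripe arrays with those against breaker. The 4 rises from turning to red ripe and that of TCP12 from pink to red ripe held under the 3 other scalings. Leaving out 1 turning or pink array takes the spread of its stage out of the test. Calls made without it therefore cannot show that these rises exceed that spread. The rises of TCP11, TCP18, TCP15 and TCP24 from pink to red ripe did not hold under quantile or cyclic loess normalization. That of TCP24, which measured 0.80 as deposited, turned to -0.06 after quantile normalization. The number that rose was 1 without pink replicate 1, 2 without pink replicate 2, and 3 without red ripe replicate 2 or 3.

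**Figure D3:**
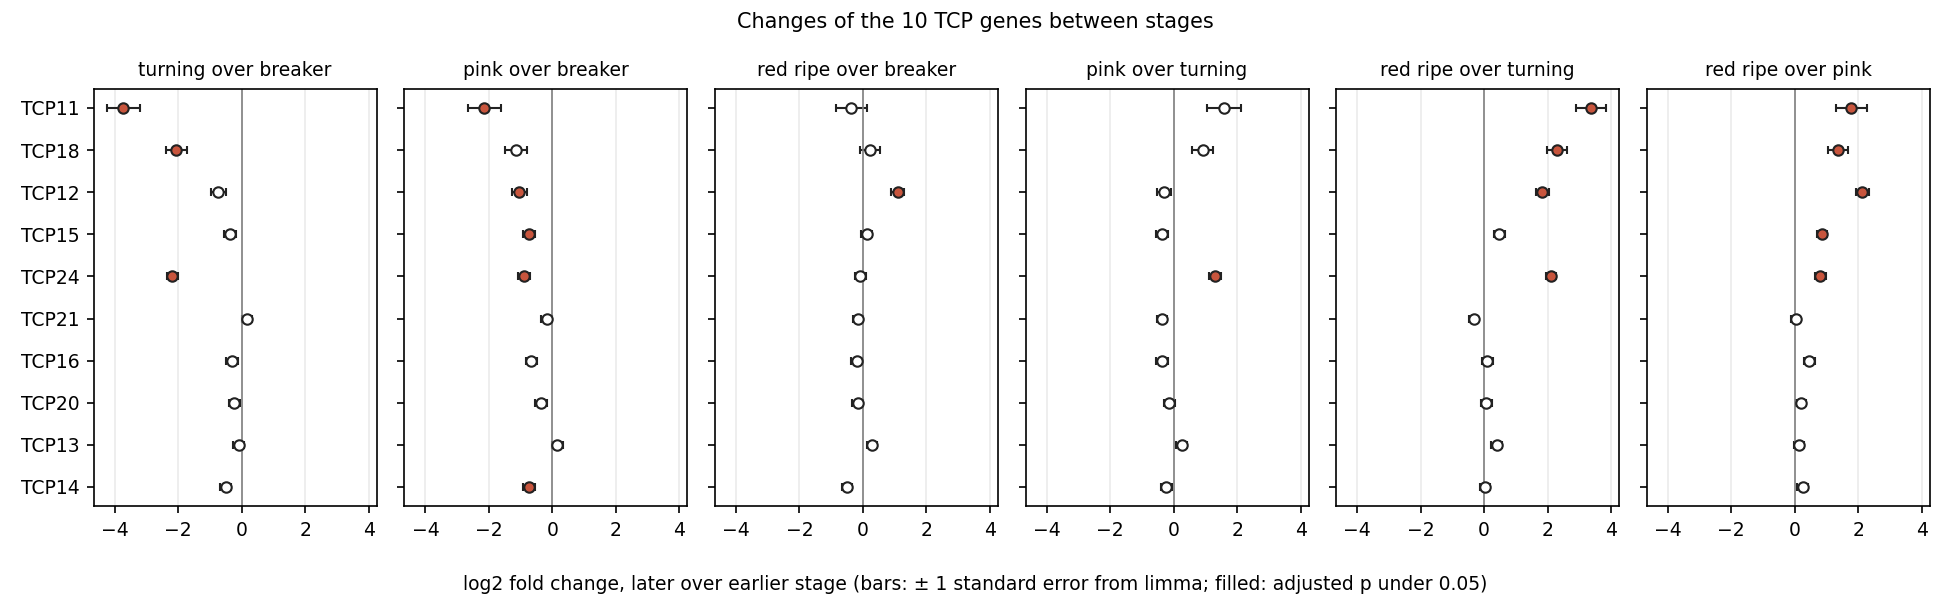
Log2 fold change of the 10 TCP genes (rows), later over earlier stage, in the 6 comparisons (panels), with bars of 1 standard error and filled points at an adjusted p under 0.05. TCP11, TCP18 and TCP24 lie between -3.73 and -2.06 at turning against breaker, and the genes without clear signal lie within 0.74 of 0 throughout.

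**Figure D4:**
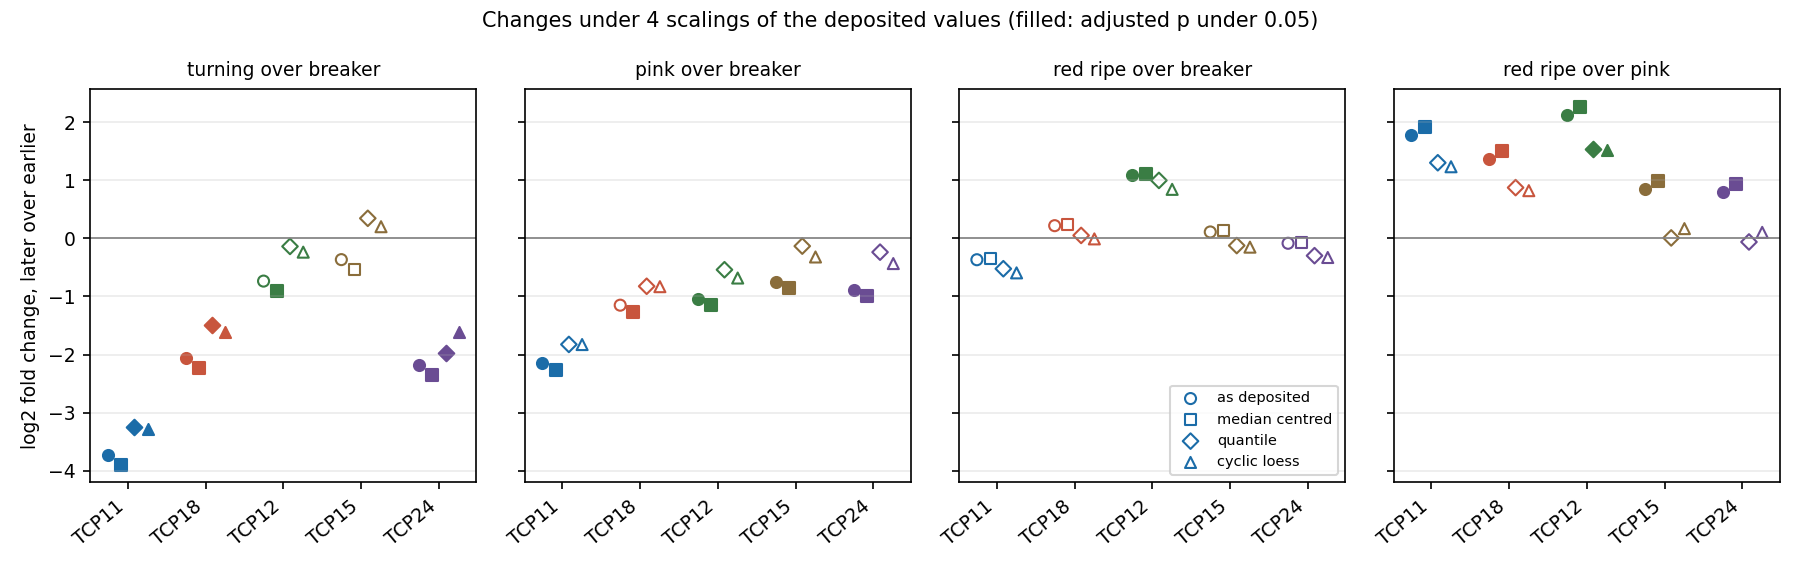
Log2 fold change of the 5 TCP genes with clear signal in 4 comparisons (panels), from the deposited values and after median centring, quantile and cyclic loess normalization (marker shapes), filled at an adjusted p under 0.05. The falls of TCP11, TCP18 and TCP24 at turning and the rise of TCP12 from pink to red ripe are filled under all 4 scalings. The points of TCP15 lie on both sides of 0 at turning and at red ripe against breaker. So do those of TCP18 at red ripe against breaker and of TCP24 at red ripe against pink.

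The percentile of a gene among all probe sets of its own array does not depend on the scale. TCP11 lay at percentiles 98.3 and 98.9 at breaker, 85.7 and 93.1 at turning, 94.0 and 96.0 at pink and 97.8 to 98.1 at red ripe. Those of TCP18 were 97.06 and 97.76 at breaker, 91.79 and 94.82 at turning, 95.69 and 95.34 at pink and 97.28 to 97.85 at red ripe. TCP24 lay at 88.7 and 89.8 at breaker, 73.4 and 78.8 at turning, 88.4 and 87.9 at pink and 87.1 to 89.1 at red ripe, so that by this measure its pink arrays lay within the range of red ripe. TCP15 stayed between 90.7 and 94.5 on all arrays, with its highest value on turning replicate 1. TCP12 lay at 92.7 to 95.5 on the arrays of breaker, turning and pink and at 96.7 to 97.5 at red ripe.

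Among the genes without clear signal, TCP21, TCP16, TCP20 and TCP13 passed the test in none of the 6 comparisons, and TCP14 passed at pink against breaker as given above. Their log2 fold changes lay between -0.74 and 0.46. None of the 11 genes left out passed in any comparison, with log2 fold changes of -0.44 to 0.49. Among these were TCP3 and TCP10, of the miR319 type like TCP24, with means of 1.90 and 1.34, so that changes of these genes were not measurable here.

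Genes with profiles like those of TCP genes were taken from 13500 named genes with a mean above the median of the array. The 5 nearest to TCP18 over the 9 arrays were LOC101261051, LOC101260864, LOC101262690, LOC101256200 and LOC101263340, at Pearson r of 0.993 to 0.989. Of the 13500 genes, 435 had r over 0.95 with TCP18, and the nearest TCP gene, TCP11, was number 98 in that order. For TCP24, the gene with the largest F statistic over stages of the 10, the nearest were LOC101264410, PPCK2, LOC101250430, LOC101259340 and LOC100125911 (r of 0.993 to 0.988). PPCK2 is a kinase of phosphoenolpyruvate carboxylase. For TCP20, which had the smallest F and no clear signal, they were LOC101265357, ndhG, LOC101260718, LOC101250097 and LOC101258846 (0.953 to 0.868).

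Gene lists on topics chosen for the TCP factors, set by gene symbols, were described in the comparisons with breaker. A place on a list does not mark a gene as a target or partner of a TCP factor. Jasmonate synthesis and response, to which LOX2, a target of TCP4 in Arabidopsis, belongs, was 1 list: of 11 matched genes, from 15 names, 5 fell and none rose at turning, 6 fell and 1 rose at pink, and 3 fell and 1 rose at red ripe. Their median log2 fold changes were -0.74, -1.15 and -0.07, beside 0.12, 0.08 and 0.01 for all probe sets. Falls made up 9.01%, 7.39% and 1.69% of all probe sets at these stages. Of the 11 genes 6 had a mean over 4, and among all probe sets of that brightness 39.5% fell at turning and 31.7% at pink, with medians of -0.58 and -0.42. JA3, which RefSeq lists as MYC2, the central transcription factor of the jasmonate response, was lower by 3.48 at turning (adjusted p = 2.71e-05) and by 2.03 at pink (adjusted p = 2.18e-04), and had a mean of 7.25 at red ripe against 7.28 at breaker. The reductase OPR3 had log2 fold changes of -3.08, -2.94 and -2.23 at turning, pink and red ripe (adjusted p = 5.00e-05, 6.84e-05 and 2.31e-04). Those of the acyl-CoA oxidase Acx1A were -2.70 at turning and -1.88 at pink, and those of the allene oxide cyclase AOC -1.35, -1.44 and -1.93 at the 3 stages, all past the test. The mean signals of Acx1A at turning (2.54) and of AOC at red ripe (2.71) lay in the range of background, which limits these sizes. The rises, named after their values were seen, were those of the lipoxygenases loxC at pink (0.64, adjusted p = 0.0335) and loxD at red ripe (1.63, adjusted p = 0.0334). Both entered the list by their symbols, and whether either serves jasmonate synthesis in this tissue was not tested.

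LANCEOLATE does not stand under that name among the 21 TCP genes, and its own signal is not given here. Of the LANCEOLATE network, 20 genes could be matched from 36 names, and of these 2 fell at turning, 2 fell at pink and 2 rose at red ripe. The background over all probe sets was 9.01% lower, 7.39% lower and 2.35% higher, so that 2 of 20 genes at turning and pink are near it. The homeobox gene T12 had log2 fold changes of -1.66 and -1.19 at turning and pink (adjusted p = 1.49e-04 and 8.54e-04). Those of GA2ox2, an enzyme that inactivates gibberellin, were -3.31 and -2.96 (adjusted p = 0.00194 and 0.00392), and at red ripe it was 1.79 above breaker (adjusted p = 0.0532). The Aux/IAA repressor IAA3 rose by 1.48 and the MADS-box factor TDR4 by 1.55 at red ripe (adjusted p = 0.0178 and 0.0019). The medians of the list were 0.04, 0.11 and 0.04 at turning, pink and red ripe, close to those of all probe sets. Of 13 cell cycle genes CycA3, an A-type cyclin, fell at turning by 1.66 (adjusted p = 0.0466), and none passed at pink or red ripe. This 1 of 13 is no more than the 9.01% of all probe sets. Of 15 names for strigolactones and branching CCD7 and Ls could be matched, with means of 1.71 and 1.48, and neither passed. No growth-regulating factor of the GRF or GIF families could be matched. Of 17 names of ripening regulators 4 could be matched, of which 3 fell at turning, 2 fell at pink and 1 rose at red ripe. All 4 had means over 4, where 39.5% and 31.7% of probe sets fell at turning and pink and 9.56% rose at red ripe. The NAC factor NAC-NOR fell by 2.21 at turning, the MADS-box factor TM29 had -1.90 and -1.27 at turning and pink, and LOC543885, which RefSeq lists as TM5, had -1.5 and -0.80, while TDR4 rose at red ripe as above.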

How the data were processed

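Total RNA of 9 pericarp samples was hybridised to 1 Affymetrix TomGene ST 1.1 array each. As deposited, values are on the log2 scale, computed by the authors with RMA (background correction, normalization across arrays, summary per probe set) in Affymetrix Expression Console. Transcriptome Analysis Console 2.0 is named as well. The 67795 probe sets entered without a filter, and TCP genes were found through their symbols. The array's annotation names no assembly, so coordinates are left out, and sequences were not used here. Stage means were estimated from the 9 arrays in 1 linear model (limma 3.58.1, R 4.3.3), and 6 pairs of stages were compared, later over earlier. Benjamini-Hochberg adjustment ran over the whole array, and genes with an adjusted p under 0.05 were called. The fit was also run on simulated data, in which each probe set had the same spread at all stages. Such data cannot show how the fit performs where the spread differs between stages. According to the methods the replicates are independent, with a number of 2 per stage, whereas 3 red ripe arrays are in the table. The p-values reflect the spread between samples, pooled over stages, although this spread was larger at turning and pink, and the number of arrays limits the precision.

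Members, gene lists and alternatives were chosen with earlier results of these data known. All 10 TCP genes of the rule are named, with the 5 nearest profiles of TCP18 and of the members with the largest and smallest F, and up to 4 members per list with the smallest adjusted p against breaker. Other normalizations, a signal filter, other moderation, weights and thresholds (those of the methods, a linear fold of more than 2 at an unadjusted p under 0.05, included), single pairs of stages, the replicate number as a block and each array left out were tried.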

Additional observations from a re-analysis of the deposited data

How the results depend on the processing

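Of the 19 changes called among the 10 genes and 6 comparisons, 10 held under the 3 other scalings, 8 held without each array in turn and 8 under both, namely the falls of TCP11, TCP18 and TCP24 at turning, the rises of TCP11, TCP18, TCP12 and TCP24 from turning to red ripe and the rise of TCP12 from pink to red ripe. TCP24 at red ripe against pink changed sign (0.80 as deposited, -0.061 after quantile normalization). Falls at turning numbered 3 in the fit as described, 5 after median centring, and, in a test on these 2 stages with each probe set's own spread, 1 at the thresholds of the methods and 0 after Benjamini-Hochberg adjustment. Falls at pink numbered 5 as described, 7 after median centring (TCP18 and TCP16 added), 2 after quantile normalization, 2 after cyclic loess normalization, 2 with a fold change over 2 as well, 3 at the unadjusted thresholds of the methods, and 1 (TCP18) and 0 in the test with own spread. At red ripe against breaker the 1 rise became 0 after quantile, after cyclic loess and in the adjusted test with own spread, and 1 fall, TCP14, appeared with array weights. From turning to pink the 1 rise became 0 with only the 2 stages, with array weights, with the mean of all probe sets and in the adjusted test with own spread, and 2 at the unadjusted thresholds. From turning to red ripe the 4 rises became 1 in the adjusted test with own spread. Median centring added TCP15 (0.66, adjusted p = 0.0330) and TCP13 (0.57, adjusted p = 0.0418) there. Cyclic loess normalization added TCP13 (0.59, adjusted p = 0.0369), whose signals lay within the range of background. From pink to red ripe the 5 rises became 1 after quantile or cyclic loess normalization, 3 with any fold threshold over 2 and 2 in the adjusted test with own spread.

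Without each array in turn the falls numbered 3 to 4 at turning and 0 to 6 at pink against breaker, the rises at red ripe against breaker 0 to 1, those from turning to pink 0 to 3, from turning to red ripe 4 to 5 and from pink to red ripe 1 to 5, and the counts in the other directions stayed at 0. With the replicate number as a block 3 genes fell at pink in place of 5, without TCP15 (adjusted p = 0.0937) and TCP14 (0.0543). Between samples of 1 number, the deviations from the stage means correlated at -0.01 to 0.09 over 12 pairs. In a stage of 2 arrays the deviations are mirror images of each other, so these pairs are not independent. They cannot show whether the replicate numbers mark pairs. Over the whole array the median change at turning on the log2 scale was 0.12 as deposited, -0.05 after median centring and 0.03 after quantile normalization. The share of falls among called probe sets, as deposited and after median centring, quantile and cyclic loess normalization, was 70.0%, 85.0%, 57.9% and 59.5% at turning against breaker, 72.7%, 82.9%, 57.7% and 61.6% at pink, 41.9%, 39.99%, 53.1% and 56.7% at red ripe, 34.7%, 16.5%, 43.6% and 43.9% from turning to red ripe and 27.4%, 15.4%, 43.1% and 42.6% from pink to red ripe. Of 30 counts for the gene lists, recomputed 660 times, 81 values moved, that is by more than 1.5 times or to or from 0. Signal within about 1 unit of the median of an array limits what can be said of the genes without clear signal.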

Other observations

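Turning replicate 1 held the lowest of 9 signals for 3 of the 5 TCP genes with clear signal (TCP11, TCP18 and TCP24) and the highest for 5 of the 16 without it, and pink replicate 1 the lowest for 2 and the highest for 4. The other highest signals of the 16 lay on turning replicate 2 (2 genes), pink replicate 2 (2 genes), breaker replicate 1 (1 gene), red ripe replicate 2 (1 gene) and red ripe replicate 3 (1 gene). Over all probe sets, turning replicate 1 held the lowest signal for 35.5% of those with a mean over 4 and the highest for 24.3% of those at 4 or less, against 7.54% and 4.27% on breaker replicate 1. On pink replicate 1 these shares were 15.8% and 15.4%. The share of highest signals was 19.8% on turning replicate 2 and 16.1% on pink replicate 2. On red ripe replicates 2 and 3 it was 5.99% and 3.97%. These values describe the arrays, and their part in the changes of the TCP genes was not tested.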
